A study of Caenorhabditis elegans with 8 samples.

Results

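The claudin-like *clc* genes of *Caenorhabditis elegans* were examined in pretzel-stage embryos. The members were all genes whose symbol in a RefSeq gene table is clc followed by a number. That table held 32 of them. Probes on the array were matched to 19794 genes in all, among them 27 of the 32, and these 27 genes were read by 47 of the 43603 probes. No probe was assigned to *clc-18*, *clc-22*, *clc-27*, *clc-28* or *clc-29*, which were not analysed here. The family was selected on measured values, the lower signals of *clc-25* and *clc-26* in *aptf-1* mutant embryos, with *clc-25* seen on N2 arrays only. The values of these 2 genes in the mutant and in N2 are therefore a description and carry no test.

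Claudins are small proteins that span the plasma membrane several times and sit at the junctions between epithelial cells, where they seal or tune the path between neighbouring cells. In *C. elegans* the claudin-like proteins CLC-1 and CLC-2 are known for a barrier role, CLC-1 in the pharynx and CLC-2 in the epidermis. Most other members have no role that is named here.

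The array study asked which genes depend on APTF-1, an AP2 transcription factor needed for the sleep-promoting function of the neuron RIS. There were 4 samples of *aptf-1(gk794)*, a deletion allele in a strain backcrossed to N2, and 4 samples of N2, the wild type. A sample was total RNA of about 3000 hand-picked whole hermaphrodite embryos of worms kept at 21.5°C on *E. coli* OP50, and no drug or transgene is named for either genotype. The methods call the samples biological samples. Because whole embryos were used, fewer cells that express a gene and less RNA per cell cannot be told apart.

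Each sample was hybridised to a 1-colour Agilent array, and the 8 arrays lay on 2 slides that each held 2 arrays per genotype. Between 79.4% and 83.1% of all probes were well above background per array, 0 spots were saturated, and N2 replicate 2 had the lowest share. The *aptf-1* probe averaged -1.55 ± 0.19 in the mutant and 0.51 ± 0.22 in N2 (log2 intensity, SD, n = 4 each), a difference of -2.06 with an adjusted p of 0.00276 in limma. Whether that probe lies in the stretch deleted by *gk794* was not tested. Marker genes of muscle (5 of 5), pharynx (4 of 4), neurons (5 of 5), epidermis (5 of 5) and intestine (5 of 5) were above background on all 8 arrays. Of 4 genes listed from general knowledge for the late embryo or hatching, 3 were above background on all 8 arrays. *bli-1* was on 0, and whether it belongs in that list was not tested. In the early embryo list 5 of 7 genes were also above background on all 8 arrays. The lists for germline and sperm (3 of 4) and adult intestine (2 of 3) were similar. Detection alone thus does not set these stages apart. In all of the marker lists 0 probes were called different between genotypes, where the share over all tested probes was 0.0504%. An unadjusted p under 0.05 in limma was reached by 1 probe of these lists (2.98% of all probes), that of the early embryo gene *end-3*, a GATA factor of the endoderm. It had levels relative to the array of -5.38, -5.17, -5.13 and -5.19 in the mutant, against -5.41, -5.42, -5.74 and -5.41 in N2, on the log2 scale. Its mutant arrays lay wholly above the N2 arrays, as in 0.746% of all probes with a value on every array.

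Most of the family was detected in the late embryo. In all, 22 of the 27 genes were well above background on all 8 arrays and 26 were on at least 4. By probes, 46 of 47 passed this minimum (97.9%, against 82.0% of all probes), and 13 of the 47 probes read *clc-15* alone. The number of *clc* genes above background was 24 on each of the 4 mutant arrays and 25 or 26 on the N2 arrays. The genes that were not detected everywhere were few. *clc-4* was above background on 3 mutant and 3 N2 arrays, and *clc-33* on 3 mutant and 3 N2 arrays. *clc-12* was detected on 2 mutant arrays and on 4 N2 arrays. *clc-13* was not well above background on any array. *clc-25* was the only member detected on 0 mutant arrays and on 4 N2 arrays, a pattern found in 4 of the 43603 probes (0.00917%). This pattern was among the values on which the family was selected, so nothing is read from it. It also enters the gene counts per array. The reverse pattern was found in 2 probes (0.00459%) and in no *clc* probe.

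**Figure D1:**
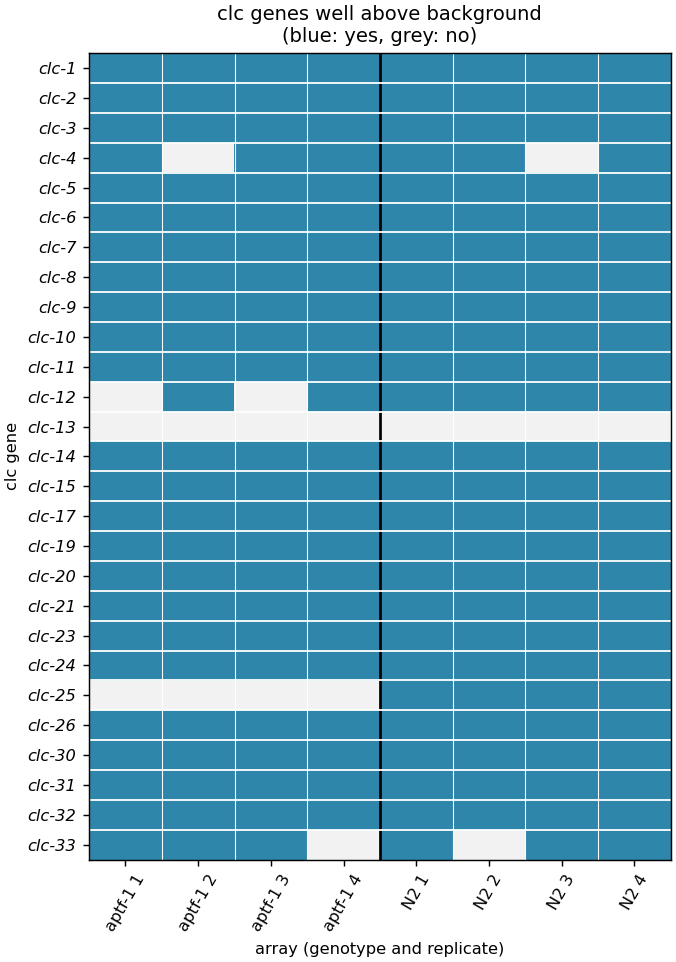
Detection of the 27 *clc* genes with a probe (rows) on the 4 aptf-1 mutant arrays (left) and the 4 N2 arrays (right). Blue marks a gene with a probe well above background, and *clc-25* is blue on N2 arrays only.

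In the following, the level of a probe is its intensity relative to the 75th percentile of all probes on the array, on the log2 scale, so that a probe at that percentile has the level 0. Levels of different probes are not set against each other, since probes differ in how brightly they bind. The test was run on the probes detected on 4 or more arrays, which were 35739 in all and 46 of the 47 *clc* probes. *clc-25* passed this minimum through its N2 arrays alone. Calls needed both an adjusted p below 0.05 in limma and a fold change of 1.5 or more.

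*clc-25* had the lower levels in the mutant for which it was chosen. Its levels were -9.11, -9.08, -7.87 and -8.17 on the mutant arrays, against -7.27, -6.62, -6.15 and -6.76 on the N2 arrays. All 4 mutant arrays lay below all 4 N2 arrays, and mutant replicates 1 and 2, which shared a slide, were the lowest. These are dim signals, since the intensities were 4.13 to 14.1 units in the mutant and 15.7 to 52.4 units in N2. The means were -8.56 ± 0.63 in the mutant and -6.70 ± 0.46 in N2 (SD, n = 4 each), a log2 difference of -1.86 with a standard error of 0.34. Because no mutant array was above background, the size of the difference is uncertain. With mutant arrays set no lower than the dimmest probe still well above background there, *clc-25* averaged 2.41-fold lower in the mutant. This is no firm lower limit, since it leaves out the spread of the arrays and rests on the scanner's background correction. With normexp background correction in place of the scanner's own, the log2 difference was -0.29. The same order on each slide follows from the lack of overlap over all 8 arrays and is no separate result.

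*clc-26* was also lower in the mutant, and its intensities were 1068 to 1843 units in the mutant and 1919 to 3410 units in N2. Its levels were -1.10, -1.14, -0.84 and -1.02 in the mutant, against 0.14, -0.23, -0.12 and -0.51 in N2. The groups did not overlap, and the nearest arrays were mutant replicate 3 and N2 replicate 4, both on slide 2. The mutant averaged -1.02 ± 0.13 and N2 -0.18 ± 0.27 (SD, n = 4 each), and the log2 difference was -0.84 with a standard error of 0.15, which is 55.8% of the N2 intensity. It was -1.07 within slide 1 and -0.61 within slide 2. Neither gene was called in the fit over all probes.

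Over the whole family 0 of the 46 tested probes were called, where 18 of all 35739 probes were (0.0504%), 17 of them lower in the mutant (0.0476%). An unadjusted p under 0.05 was reached in limma by 2 *clc* probes (2.98% of all probes), those of *clc-25* and *clc-26*, and a test of each probe without moderation gave the same number, with 0 left after Benjamini-Hochberg adjustment. A 1.5-fold lower level in the mutant was found in 3 *clc* probes (1.15% of all probes), with *clc-12* as the third, and a 1.5-fold higher one in 0 (0.672%). Mutant arrays lay wholly below N2 arrays in 2 of the 43 *clc* probes that had a value on every array (1.3% of all such probes), and wholly above in 0 (0.746%). Since the family was selected on these differences, nothing is read from these counts. The 44 probes other than those of *clc-25* and *clc-26* all had an adjusted p of 0.9999.

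**Figure D2:**
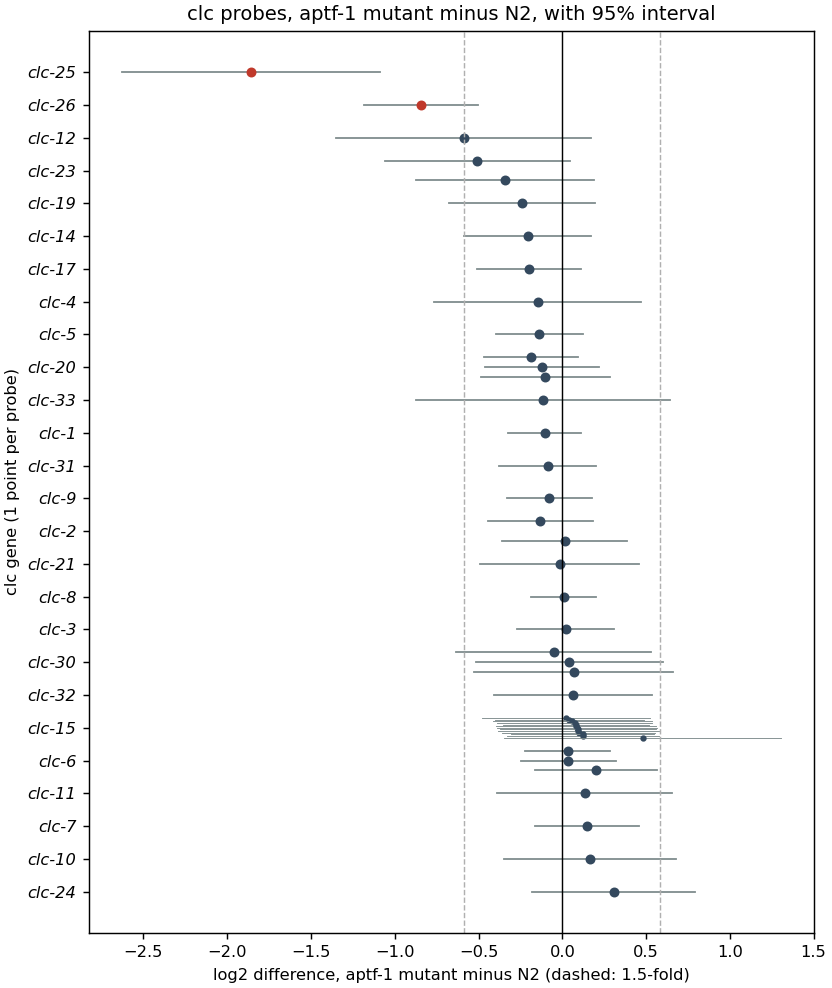
Log2 difference of the mutant minus N2 for each tested *clc* probe (points) with its 95% interval (lines), genes ordered by their mean difference and dashed lines at 1.5-fold. *clc-25* and *clc-26*, in red, lie at -1.86 and -0.84, and the means of the other genes lie between -0.59 and 0.31. The *clc-15* probe at 0.48, left out of its gene's mean, rests on 1 mutant and 2 N2 arrays.

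The differences of the other members were small. Over the 24 tested genes other than *clc-25* and *clc-26*, 14 were lower and 10 higher in the mutant, with a median log2 difference of -0.07, against a median of -0.02 over 17066 genes, of which 55.5% were lower. For 21 of these 24 genes the difference was within 0.25 in either direction. The 95% interval lay within 1.5-fold either way for 31 of their 44 probes (70.5%, against 64.7% of all probes). For the remaining probes the interval reached past 1.5-fold in at least 1 direction. Of the 44 probes, 13 read *clc-15* on the same arrays. The share thus leans on that gene, and nothing is read from its place beside the share of all probes. The replicate SD had a median over these genes of 0.22 in the mutant and 0.22 in N2.

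The members with a known barrier role had overlapping levels in both genotypes. *clc-1* had levels of 2.06, 2.11, 2.00 and 2.22 in the mutant, against 2.13, 2.18, 2.31 and 2.18 in N2. Its difference was -0.10 with a 95% interval of -0.32 to 0.11. *clc-2*, averaged over 2 probes, had 0.20, -0.14, -0.15 and 0.10 in the mutant, against 0.23, 0.02, 0.25 and -0.24 in N2. The genotypes overlapped for both genes. The next gene after *clc-2* on chromosome X is *clc-5*, with levels of 0.86, 0.51, 0.48 and 0.67 in the mutant, against 0.85, 0.77, 0.80 and 0.66 in N2, and a difference of -0.14 (95% interval -0.40 to 0.12). The epidermal markers were read beside these because CLC-2 is an epidermal protein. Their mean over the 5 genes was 0.90 to 1.37 per mutant array and 0.44 to 1.07 per N2 array. All 5 averaged higher in the mutant, by 0.10 to 0.43, with overlapping groups. The pharynx markers, read for CLC-1, had means of 0.80 to 1.14 per mutant array and 0.83 to 1.11 per N2 array. Their differences ran from -0.11 to 0.19. The part of either list in the values was not tested.

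*clc-3* and *clc-4* were first studied together with *clc-1* and *clc-2* and lie on the same chromosome. *clc-3* had levels of 2.12, 1.77, 1.91 and 1.99 in the mutant, against 2.18, 1.76, 1.89 and 1.87 in N2. In each genotype replicate 1 was the highest, and the difference of 0.02 had an interval of -0.27 to 0.31. *clc-4* was dim, with -7.25, -8.30, -7.75 and -7.94 in the mutant, against -7.17, -7.68, -8.23 and -7.56 in N2. Its difference of -0.15 had an interval of -0.76 to 0.47, which holds more than a 1.5-fold lower level.

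*clc-12* and *clc-23* came next among the members lower in the mutant, and both had overlapping groups. *clc-12* had -8.03, -7.70, -7.76 and -6.92 in the mutant, against -7.33, -7.50, -7.09 and -6.13 in N2, a difference of -0.59 with an interval of -1.35 to 0.17. Replicate 4 was the highest in both genotypes, and 2 of the mutant arrays were not well above background. The difference was -0.30 without N2 replicate 4, -0.09 with normexp correction and 0.13 with array weights. *clc-23*, averaged over 2 probes, had -4.18, -3.73, -3.64 and -3.64 in the mutant, against -3.70, -3.35, -2.80 and -3.66 in N2. Its probes gave -0.51 and -0.34, with intervals that held 0. *clc-19* had -0.15, -0.25, -0.96 and -0.41 in the mutant, against -0.14, -0.32, -0.41 and 0.05 in N2, and mutant replicate 3 was the lowest of the 8 arrays.

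At the other end were the members with higher mean levels in the mutant than in N2. *clc-24* had -3.62, -4.15, -3.89 and -3.99 in the mutant, against -3.62, -4.49, -4.28 and -4.51 in N2, a difference of 0.31 with an interval of -0.18 to 0.79. Replicate 1 was the highest in both genotypes and had the same level in both. *clc-10* had -5.52, -5.45, -5.51 and -5.75 in the mutant, against -5.09, -6.17, -5.60 and -6.03 in N2, so that the N2 arrays spread to both sides of the mutant arrays. *clc-7* had 0.88, 0.48, 0.80 and 0.79 in the mutant, against 0.57, 0.82, 0.63 and 0.34 in N2, a difference of 0.15. *clc-11* had 1.5, 1.99, 1.61 and 1.85 in the mutant, against 1.31, 2.11 and 1.38 on 3 N2 arrays, since its spot on N2 replicate 2 carried an outlier mark and was not used. *clc-6*, over 3 probes, had 2.36, 2.14, 2.34 and 2.21 in the mutant, against 2.19, 2.22, 2.16 and 2.12 in N2. In all of these the groups overlapped. Of the 11 further tested members, 7 were lower and 4 higher in the mutant, with differences between -0.21 and 0.08 and overlapping groups in all 11.

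Within a genotype, single arrays stood out in several members. Over the 25 tested genes with a value on every array, mutant replicate 1 was the highest mutant array for 15 and N2 replicate 1 the highest N2 array for 12. Mutant replicates 2 and 3 were each the lowest mutant array for 10 genes, and N2 replicate 4 was the lowest N2 array for 10. For *clc-15*, averaged over 11 of its probes, the levels were 0.67, 0.24, 0.43 and 0.60 in the mutant, against 0.68, 0.22, 0.79 and -0.06 in N2. For *clc-30*, over 3 probes, they were 1.36, 1.08, 0.80 and 1.14 in the mutant, against 1.44, 1.17, 1.38 and 0.31 in N2. Both had their lowest value on N2 replicate 4.

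**Figure D3:**
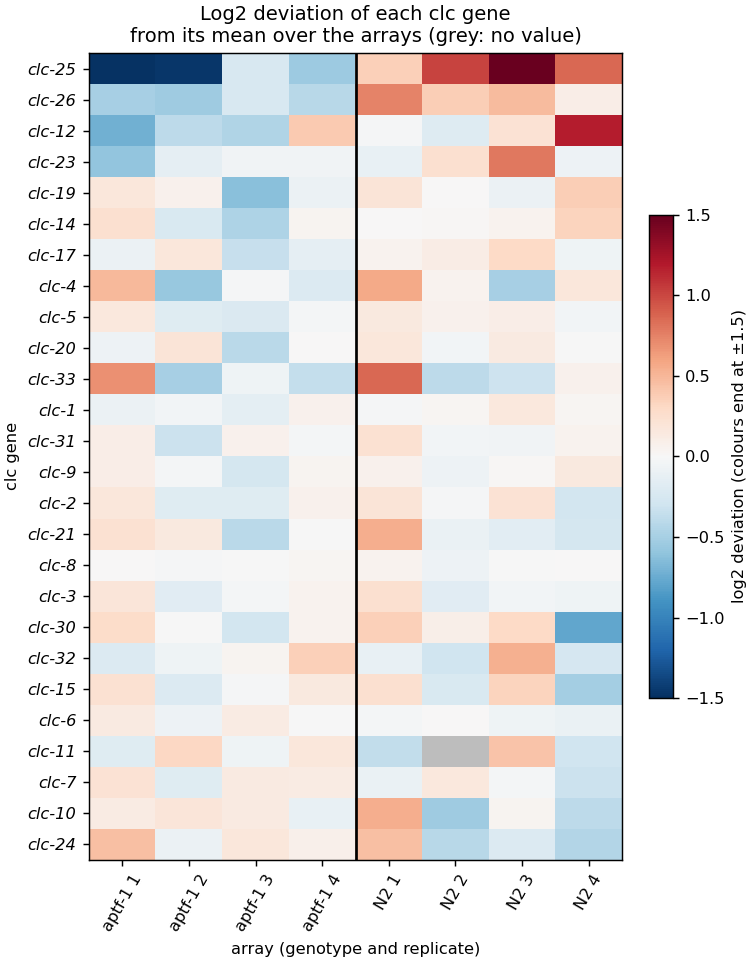
Deviation of each tested *clc* gene (rows, ordered by mutant minus N2) from its own mean over the arrays, on the log2 scale, with mutant arrays on the left and N2 arrays on the right. *clc-25* and *clc-26* are split by genotype, and for the other genes single arrays such as N2 replicate 4 for *clc-30* stand out.

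A comparison that played no part in choosing the family was that of the 2 slides. For slide 2 minus slide 1, with genotype as a covariate, 0 *clc* probes were called in limma, as were 0 of all 35725 probes (0%). An unadjusted p under 0.05 was reached by 3 *clc* probes (2.53% of all probes) and a 1.5-fold difference by 2 (3.62%). The slide differences ran from -0.41 for *clc-21* to 0.78 for *clc-25*. The adjusted p of *clc-25* for the slides was 0.985, and its mutant arrays were not above background.

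By position, 11 of the 32 genes lie on chromosome III, 7 each on V and X, 3 on II and 2 each on I and IV, and several are direct neighbours. The longest such run is on chromosome III, in the order *clc-27*, *clc-24*, *Y34F4.3*, *clc-23*, *clc-25* and *clc-26*. *clc-25* and *clc-26* are next to each other there. Of the 5 genes of this run with a probe, 4 were lower in the mutant and *clc-24* was higher, where 55.5% of all genes were lower. The 4 include *clc-25* and *clc-26*, on whose values the family was selected, so nothing is read from this count. *Y34F4.3*, which is no *clc* gene, had -5.72, -6.43, -5.95 and -6.09 in the mutant, against -5.26, -5.79, -5.49 and -4.90 in N2, a difference of -0.69 with overlapping groups. *E_BE45912.2*, next to *clc-26* on the other side, had -3.13, -3.31, -3.46 and -3.19 in the mutant, against -2.71, -2.93, -2.96 and -3.04 in N2. Its groups did not overlap, at a difference of -0.36, where 1.3% of all probes with a value on every array lay wholly lower in the mutant. Both genes were picked out after their values were seen, and each had an adjusted p of 0.9999. Farther out, the 5 tested genes before the run had differences of -0.34 to -0.07, and of the 5 tested after it *E_BE45912.2* was lower and 4 were higher, up to 0.29. Whether probes of neighbouring members also bind each other's RNA was not tested.

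**Figure D4:**
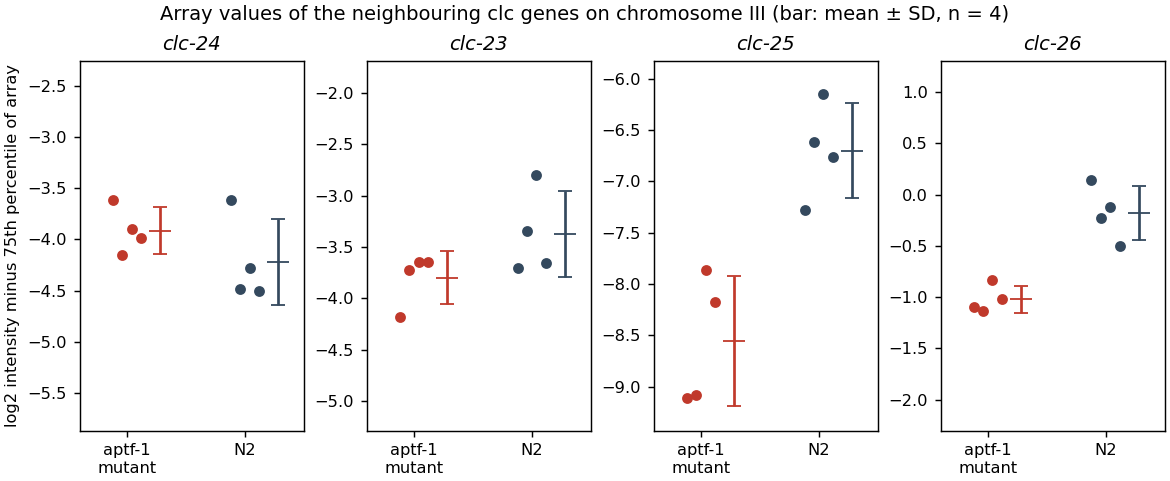
Levels of *clc-24*, *clc-23*, *clc-25* and *clc-26* on each array (points; log2 scale, relative to the 75th percentile of the array), mutant left and N2 right, with the mean and SD (n = 4 each). All panels span the same range of log2 values, and the genotypes are apart for *clc-25* and *clc-26* and overlap for *clc-24* and *clc-23*.

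**Figure D5:**
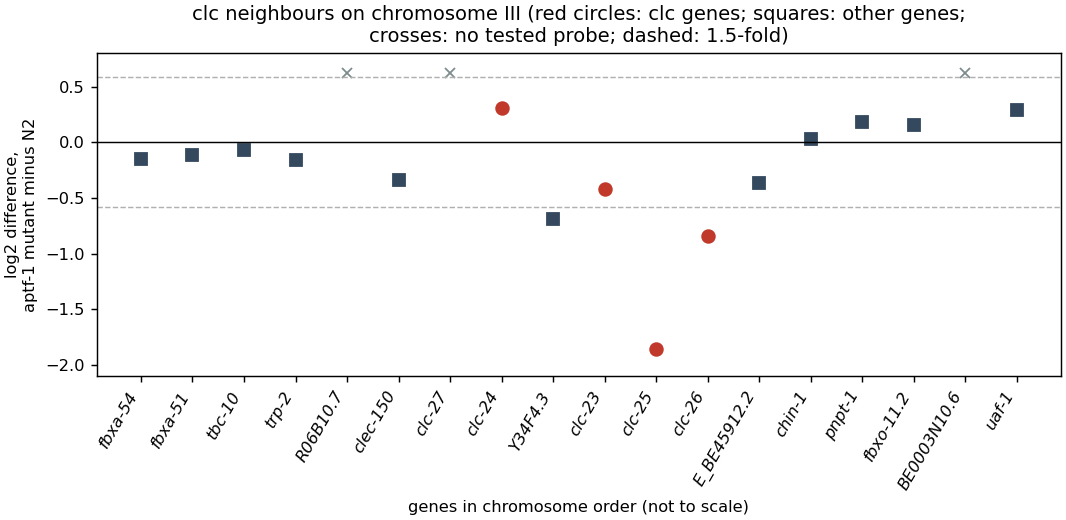
Log2 difference of the mutant minus N2 for the genes from 6 before *clc-27* to 6 after *clc-26*, in chromosome order. The lowest points are *clc-25* (-1.86), *clc-26* (-0.84) and *Y34F4.3* (-0.69).

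Other members that adjoin each other were read in the same way. *clc-20* and *clc-19* on chromosome III were at -0.14 and -0.24, *clc-15* and *clc-14* on chromosome I at 0.08 and -0.21, and *clc-11* and *clc-32* on chromosome V at 0.13 and 0.06. All of these were mutant minus N2 on the log2 scale, with an adjusted p of 0.9999 for each probe.

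Other genes of the claudin superfamily and of epithelial junctions were read for comparison, from lists written from general knowledge. The superfamily list held *nsy-4*, which acts in the left-right choice of the AWC olfactory neurons, *hpo-30*, needed for dendrite branching, *vab-9*, a junction protein of the epidermis, and the stargazin-like *stg-1* and *stg-2*, partners of glutamate receptors. All 5 were above background on all 8 arrays and 0 of their 5 probes were called, with a median difference of -0.04. The range ran from *vab-9* at -0.05 to *nsy-4* at 0.11. *vab-9* had 0.80, 0.60, 0.70 and 0.88 in the mutant, against 0.78, 0.94, 0.85 and 0.63 in N2. *nsy-4* had 0.89, 0.86, 1.20 and 0.83 in the mutant, against 0.73, 0.90, 0.86 and 0.84 in N2. In both, the groups overlapped.

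The 28 genes of apical junctions, polarity and epithelial attachment were all above background on all 8 arrays. Of their 81 probes 0 were called in limma (0.0504% of all probes) and 0 reached an unadjusted p under 0.05 (2.98% of all probes), and the median difference over the genes was 0.07. The extremes were *mup-4*, a transmembrane protein that anchors epidermis to cuticle, at -0.10, and *dlg-1*, a junction scaffold, at 0.24. *mup-4* had 1.87, 1.93, 1.81 and 2.01 in the mutant, against 1.76, 2.15, 2.04 and 2.05 in N2. *dlg-1* had 0.90, 0.69, 1.09 and 0.81 in the mutant, against -0.09, 0.91, 0.38 and 1.34 in N2, where the N2 arrays spread to both sides of the mutant ones. Of the scaffold gene *magi-1*, 1 of 7 probes had mutant arrays wholly above N2 arrays (0.746% of all probes). Its levels were -0.66, -0.74, -0.32 and -0.70 in the mutant, against -0.76, -0.86, -0.75 and -0.87 in N2, a difference of 0.20 with an adjusted p of 0.9999.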

How the data were processed

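RNA of *aptf-1(gk794)* and of N2 pretzel-stage embryos was compared on 8 arrays, 4 per genotype, grouped by the sample records. RNA (200 ng) was labelled with Cy3. The authors deposited scanner files made with Feature Extraction 10.7.3.1 (Agilent), in which each spot has a background-corrected intensity, median intensities of the spot and its surround, and marks (coded as other values) for spots well above background and for outliers. A deposited series table holds log2 values of unstated scale, which ranks probes as the intensities do and has a median of 8.58. The processing notes name limma.

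Control spots (1417 of 45220) and outlier spots (62 to 188 per array) were left out. Intensities were divided by the 75th percentile of their array, put on the log2 scale and averaged over the spots of a probe. Of 43603 probes, 34266 were matched by sequence name or accession to a gene of a WBcel235 table, which was used for names and gene order only, because the array design is older. A gene's level was the mean over its tested probes with a value on all 8 arrays. Probes above background on at least 4 arrays were fitted in limma 3.58.1 (R 4.3.3; lmFit, eBayes, Benjamini-Hochberg over 35739 probes). The fits were tested on simulated data. The number of arrays limits the precision.

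The *clc* members, the gene lists and the tests were chosen with earlier results of these data known. Levels on every array are given for *clc-1* to *clc-5*, for *clc-25* and *clc-26*, for called or non-overlapping probes, for probes detected in 1 genotype only, and for the 5 genes at each end of the differences, and *clc-15* and *clc-30* were added after their values were seen. Alternatives covered scaling, background correction, filters, outlier spots, moderation, array weights, blocks, the deposited table, a test of each probe without moderation, call thresholds, the brightest probe of a gene and leaving out each array.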

Additional observations from a re-analysis of the deposited data

Results flagged for a closer look

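In 58 sets of 4 arrays, 4 had 1 array far from the other 3 by a Dixon test at the 95% level, and chance alone gives this in about 1 in 20 sets. *clc-13*, not above background on any array, stood at -8.31 on mutant replicate 1 and between -9.90 and -9.73 on the other mutant arrays. *clc-23* was lowest on the same array, at -4.18 against -3.73 to -3.64 on the other mutant arrays, as the mean of its 2 probes. *clc-14* was highest on N2 replicate 4, at 2.27 against 1.93 to 1.99 on the other N2 arrays. Over all probes, N2 replicate 2 had 79.4% well above background, against 82.4% to 82.5% on the other N2 arrays.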

How the results depend on the processing

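The number of *clc* probes called was 0 in 21 of 24 alternatives. It was 1 with array weights, where *clc-26* passed the threshold at a log2 difference of -0.86. It was 2 both with a test of each probe without moderation or adjustment and with an unadjusted limma p and the fold limit. Since the family was selected on the lower signals of *clc-25* and *clc-26*, nothing is read from these counts. Over all probes the number called, 18 as reported, was 176 with that unmoderated test, 3 with its adjusted form, 40 with array weights, 11 with slide as a block, 266 with an unadjusted limma p, and 4 to 14 without 1 array. Whether the replicate numbers pair the samples is not known. Deviations of same-numbered arrays correlated at 0.52, 0.28, -0.12 and 0.09, against -0.38 to 0.23 for arrays with different numbers, which cannot settle it. In the fit with a replicate block, 6 probes and 0 *clc* probes were called, the median over all 26 tested *clc* genes stayed at -0.08, *clc-25* at -1.86 and *clc-26* at -0.84. The log2 difference of *clc-25* shrank to -0.29 with normexp background correction and an offset of 50, it ran from -2.09 to -1.67 without 1 mutant array, and without 1 N2 array or with the filter of all 8 arrays it was not tested. Without 1 array the difference of *clc-26* ran from -0.95 to -0.74. The difference of *clc-12* was 0.13 with array weights and ran from -0.82 to -0.30 without 1 array. The difference of *aptf-1* was -2.06 with an adjusted p of 0.0582 in the adjusted unmoderated test. The median over *clc* genes ran from -0.12 to -0.0025 and the number of genes detected from 22 to 26. The counts for the slides and for both other gene lists were 0 in every alternative run. Low signal limits *clc-4*, *clc-12*, *clc-25*, *clc-31* and *clc-33*, and genes read by 1 probe (21 of 27) cannot be checked against a second one.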
